A study of Mus musculus with 6 samples.

Results

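The genes described are 10 members and neighbours of the signalling pathway of leukaemia inhibitory factor (LIF). They are the ligand gene Lif, the receptor genes Lifr, Osmr, Il6st and Cntfr, the transcription factor gene Stat3, the inhibitor gene Socs3, the C/EBP factor genes Cebpd and Cebpb, and the growth factor gene Fgf2. They were chosen by name from the gene name column of the array, where 14 probes in 32 spots carry these names, of 39429 probes in all. All 14 probes passed the filter on dim probes, so that all 10 genes were among the 26134 genes or names tested.

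LIF and its relatives of the interleukin-6 family signal through receptor pairs that contain gp130, the product of Il6st. Janus kinases bound to the receptors phosphorylate STAT3, which moves to the nucleus, and SOCS3, itself induced by STAT3, binds the receptor and damps the signal. In the injured retina LIF is known as a product of a subset of Muller glia, and LIF, CNTF and FGF2 are known to protect photoreceptors.

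Retinas came from male C57BL/6 mice of 8 weeks, whose right eye had received titanium dioxide nanoparticles or phosphate-buffered saline (PBS) in the vitreous 7 days earlier. The groups were 10PTC (10 times the lower nanoparticle dose), PTC (the lower dose) and PBS, with 12 mice in each, and 4 retinas were pooled per tube. Each of 6 arrays, 3 per dose, paired RNA of a treated pool, labelled with Cy5, with Cy3-labelled PBS control RNA, without a dye swap, so that a dye effect on a gene cannot be told apart from treatment. The labels do not state if 1 control pool served all arrays. Values are log2 of treated over PBS, in which 1 is a doubling, and tests are limma's. A gene is called where its p, adjusted by Benjamini-Hochberg across every gene tested, is at most 0.05. A p-value measures the spread among arrays of pooled retinas, taken over both doses together, and their number limits its precision. If 1 control pool served all arrays, the p-values against PBS leave out the spread among PBS retinas. Both doses are set against PBS RNA in the same channel, so the comparisons with PBS are not independent of each other.

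Between 71.0% and 85.5% of gene spots stood well above background in a channel per array, and none was saturated. PTC replicates 1 and 2 lay on 1 slide, and PTC replicate 3 and all 10PTC replicates on another. All 10 rod photoreceptor markers and all 10 Muller glia markers were well above background in Cy3 on every array. Of 13 microglia and macrophage markers 12 were higher at 10PTC and 12 at PTC, and 11 of the 13 were above background in Cy3 on every array. Their summed signal was 42209 to 46683 in the 10PTC pools and 34132 to 47990 in the PTC pools, against 18852 to 28513 in the PBS channel. All 10 skeletal muscle markers were lower at both doses, with medians of -2.40 at 10PTC and -2.92 at PTC. Their summed signal was 11999 to 14128.5 in the 10PTC pools and 5578 to 9432 in the PTC pools, against 59690 to 79282 in the PBS channel, and their part in the values below was not tested. In bulk retina, fewer cells of a type and less RNA per cell cannot be told apart.

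Of the 10 genes, 7 were called higher at 10PTC and none lower, where 14.4% of all genes tested were called higher and 13.3% lower. At PTC 7 were called higher and none lower as well, against a background of 16.9% and 16.3%. In either direction 27.7% of all genes were called at 10PTC and 33.1% at PTC. The 7 were the same at both doses, namely Lifr, Osmr, Il6st, Stat3, Socs3, Cebpd and Fgf2, and 10.6% of all genes were called higher at both. The 3 arrays of 10PTC all lay above 0 for 9 of the 10 genes and all below 0 for none, against 32.9% and 32.7% of all genes. Those of PTC all lay above 0 for 8 genes and all below 0 for 1, Cntfr, against 29.4% and 30.1%. Osmr, Socs3, Cebpd and Fgf2 were called and at least 2-fold higher at each dose, against 0.348% of all genes at 10PTC and 0.463% at PTC. The median of the 10 genes was 0.60 at 10PTC and 0.52 at PTC, where the median of all genes lay close to 0. With each array centred on its median in place of loess, 9644 genes were called higher and 4988 lower at 10PTC, against 3762 and 3469 with loess, and at PTC 8203 and 4216, against 4404 and 4252. The 7 genes were called higher under that centring too.

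**Figure D1:**
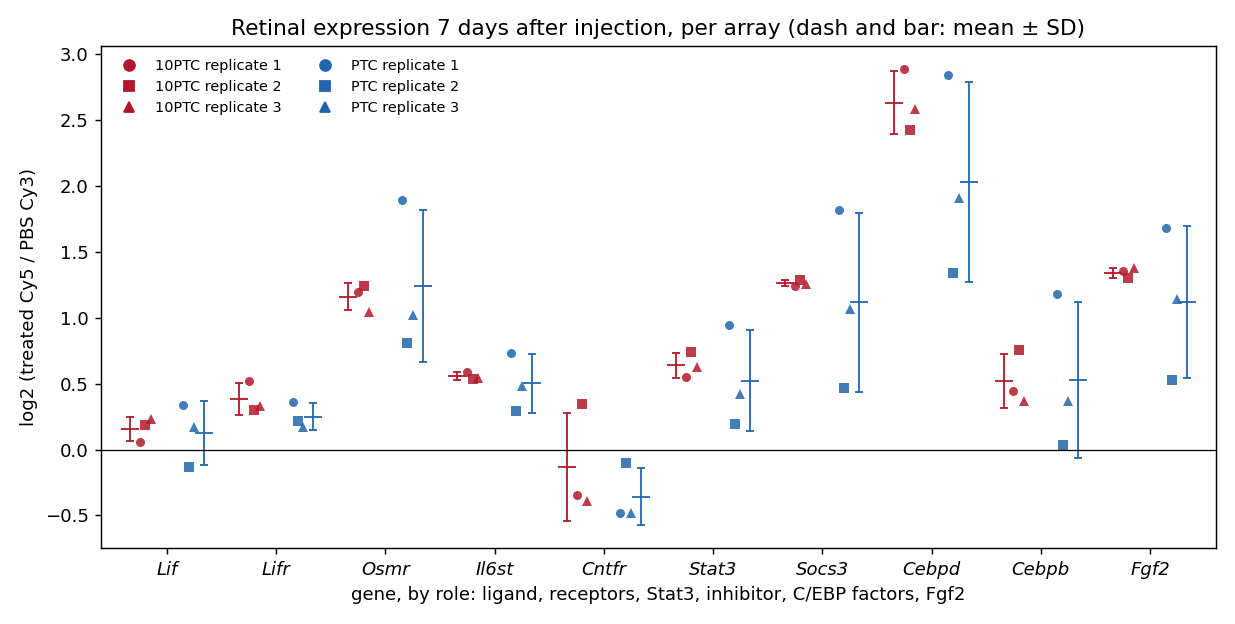
Log2 of treated (Cy5) over PBS (Cy3) for the 10 genes on each array, 10PTC in red and PTC in blue, with a marker per replicate and the mean ± SD (n = 3) beside them. Cebpd stands highest at both doses, Cntfr alone has a mean below 0 at both, and PTC replicate 1 lies above PTC replicate 2 for every gene but Cntfr.

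Lif encodes the ligand, and the spot of its single probe lay close to background. The Cy5 signal of its spot, before background subtraction, was 80.2, 86.6 and 95.6 intensity units in the 10PTC pools (replicates 1 to 3) and 114, 66.5 and 83.4 in the PTC pools. The PBS control channel read 63.6, 69.2 and 71.4 beside the 10PTC pools and 89.6, 60.2 and 66.6 beside the PTC pools. Local background was 46.0 to 59.5 in Cy5 and 25.0 to 31.0 in Cy3. The spot counted as well above background in Cy5 on 5 of 6 arrays, all but PTC replicate 2, and in Cy3 on 2 of 6, those of 10PTC replicate 3 and PTC replicate 1.

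After normexp correction and loess, Lif lay at 0.06, 0.18 and 0.23 at 10PTC and at 0.34, -0.14 and 0.17 at PTC. The means, 0.16 ± 0.09 at 10PTC and 0.13 ± 0.24 at PTC (SD, n = 3 each), were not called (limma adjusted p = 0.208 and 0.296). This value depends on how background was handled. In the scanner software's processed signals the spot read 16.5, 21.2 and 29.8 in the 10PTC pools and 48.7, 11.9 and 23.5 in the PTC pools. In those signals the PBS channel read 8.30, 6.73 and 18.5 beside 10PTC and 27.3, 4.20 and 11.7 beside PTC. The Cy5 signal exceeded the Cy3 signal on all 6 arrays there, which gave means of 1.11 at 10PTC and 1.11 at PTC, both called (limma adjusted p = 0.0265 and 0.0173). The authors' deposited table gives 1.13 at each dose (limma adjusted p = 0.0246 at 10PTC and 0.0161 at PTC on its values). Without background subtraction the means were 0.26 and 0.26 and called, and with median centring they were -0.17 at 10PTC and -0.04 at PTC and not called. Without PTC replicate 2 the PTC mean was 0.26 and called (limma adjusted p = 0.0352). Over all alternatives, Lif was called in 4 of 22 at 10PTC and 5 of 23 at PTC.

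**Figure D2:**
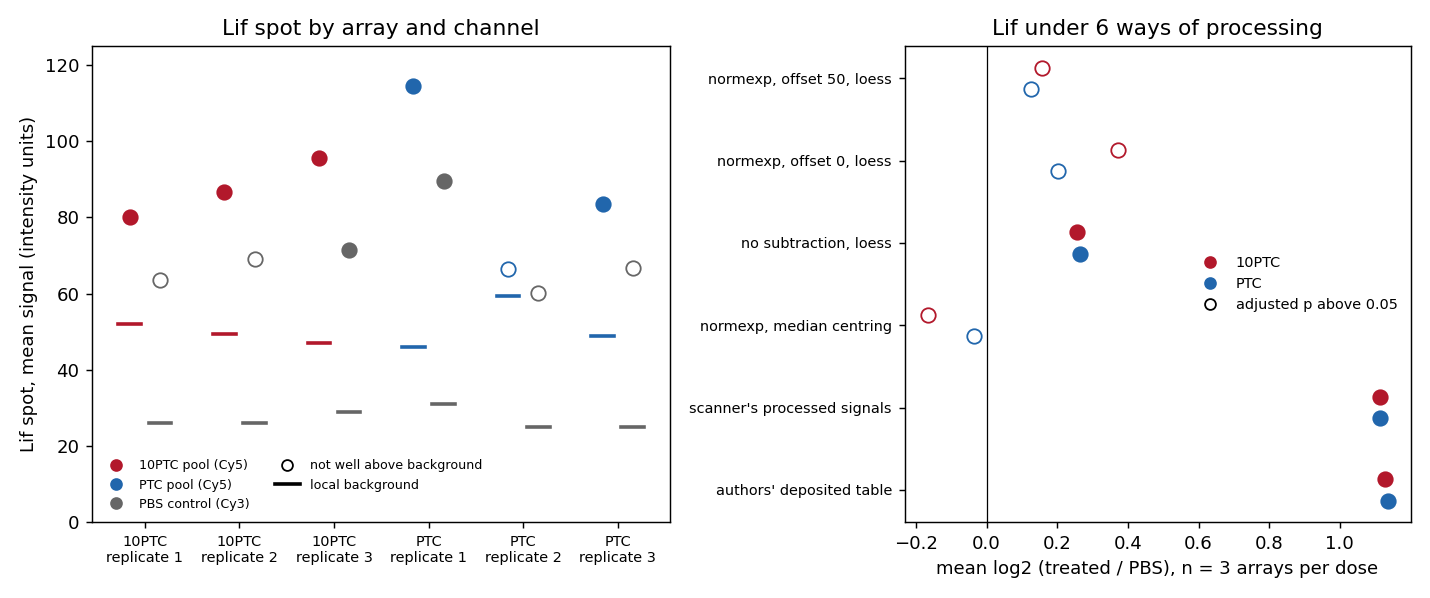
Left, mean signal of the Lif spot on each array before background subtraction, in intensity units, for the 10PTC (red) or PTC (blue) pool and the PBS control (grey), with the local background as a bar and open points where the spot was not well above background. Right, mean log2 of treated over PBS (n = 3 arrays per dose) under 6 ways of processing, with open points for an adjusted p above 0.05. The mean moves between -0.17 and 1.13 with the processing, while the doses stay close to each other within each way.

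Genes whose pattern lay closest to that of Lif, by the root mean square difference over the 6 arrays among 19485 genes matched to a symbol, were Galnt12 (0.034 log2 units), Prickle3 (0.034) and Kdelr2 (0.053). Their means lay between 0.11 and 0.18 at both doses. This likeness was taken under normexp and loess only, from a Lif spot close to background. The order of the arrays for Lif differed in the scanner software's processed signals.

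Among the receptor genes, Osmr moved most. It encodes the oncostatin M receptor, which pairs with gp130, and its values were 1.19, 1.24 and 1.05 at 10PTC and 1.90, 0.81 and 1.02 at PTC. Every array lay above 0, and the PTC arrays spread around the 10PTC arrays. The means were 1.16 ± 0.10 at 10PTC (2.24-fold) and 1.24 ± 0.58 at PTC (2.36-fold; SD, n = 3 each), with limma adjusted p = 0.00560 and 0.00343. The call at 10PTC was lost without 10PTC replicate 1 (limma adjusted p = 0.0502, mean 1.14). The patterns closest to that of Osmr were those of Irf8, a transcription factor of myeloid cells (0.148), Socs3 (0.170) and Fcer1g, a signalling chain of immune receptors of myeloid cells (0.175). The microglia and macrophage markers had medians of 0.99, 1.00 and 1.20 on the 10PTC arrays and 1.82, 0.75 and 1.34 on the PTC arrays, and their part in the Osmr value was not tested.

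Il6st, which encodes the shared subunit gp130, rose less and varied less. It lay at 0.59, 0.54 and 0.54 at 10PTC and at 0.74, 0.29 and 0.48 at PTC. All 6 arrays were above 0, with means of 0.56 ± 0.03 at 10PTC and 0.50 ± 0.22 at PTC (SD, n = 3 each; limma adjusted p = 0.00402 and 0.00409).

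Lifr encodes the receptor chain that binds LIF. Its brightest probe read 0.52, 0.30 and 0.33 at 10PTC and 0.36, 0.22 and 0.17 at PTC, with all 6 arrays above 0. The means were 0.38 ± 0.12 and 0.25 ± 0.10 (SD, n = 3 each; limma adjusted p = 0.00579 at 10PTC and 0.0188 at PTC). The other probes gave smaller values. One lay at 0.22 at 10PTC and 0.14 at PTC, both called in the fit over probes (limma adjusted p = 0.0104 and 0.0389), and the other at 0.17 and 0.06, called at 10PTC only (limma adjusted p = 0.0448 and 0.424). The PTC call of Lifr was lost without PTC replicate 1, with a mean of 0.19 (limma adjusted p = 0.0727).

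Cntfr encodes the non-signalling receptor chain for ciliary neurotrophic factor, and it was the member with means below 0. The brighter probe lay at -0.34, 0.34 and -0.39 at 10PTC and at -0.48, -0.10 and -0.48 at PTC. Only 10PTC replicate 2 was above 0. The means were -0.13 ± 0.41 and -0.36 ± 0.22 (SD, n = 3 each) and were not called (limma adjusted p = 0.530 at 10PTC and 0.0961 at PTC). The dimmer probe gave 0.16 at 10PTC and 0.03 at PTC, also not called. Without 10PTC replicate 2 the PTC mean was called lower (limma adjusted p = 0.0244). The sign of Cntfr at 10PTC turned with median centring (0.06), so its direction is not settled there.

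Of the 4 receptor genes of the family outside the 10 genes, Il6ra, Il11ra1, Il27ra and Il31ra, none was called at either dose. The share of all genes called was 27.7% at 10PTC and 33.1% at PTC. Il6ra, the interleukin-6 receptor, lay at 0.39 ± 0.11 at 10PTC and 0.33 ± 0.51 at PTC (SD, n = 3 each). Among 9 other ligand genes measured, 1 was called higher and 1 lower at 10PTC, and 2 were called lower at PTC. Over all genes the shares were 14.4% higher and 13.3% lower at 10PTC, and 16.3% lower at PTC. The number of these ligand genes called higher at PTC is not reported here. Cntf, the ciliary neurotrophic factor, was higher at both doses, by 0.68 ± 0.12 at 10PTC and 0.78 ± 0.47 at PTC (limma adjusted p = 0.0169 and 0.00852). Its second probe gave 0.60 and 0.72. RefSeq also lists a read-through of the neighbouring Zfp91 and Cntf, which these probes may detect. Il27 lay at -0.20 and -0.18, called lower at both doses, and Ebi3 at -0.17 at PTC, called lower there. The 10PTC calls of Cntf and Il27 were lost without 10PTC replicate 1 or 3, the PTC call of Il27 without PTC replicate 3, and that of Ebi3 without any 1 of the 6 arrays but 10PTC replicate 2. Il11, Osm, Clcf1 and Ctf1 lay between -0.12 and 0.14 and were not called, and Il6 did not pass the filter on dim probes.

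Stat3 encodes the transcription factor that gp130 activates. Its brighter probe was spotted 10 times per array, and the ratio averaged over those spots was 0.55, 0.74 and 0.62 at 10PTC and 0.94, 0.20 and 0.42 at PTC. All 6 arrays lay above 0, with the PTC arrays both above and below the 10PTC arrays. The means were 0.64 ± 0.09 at 10PTC (1.56-fold) and 0.52 ± 0.38 at PTC (1.43-fold; SD, n = 3 each), with limma adjusted p = 0.0116 and 0.0179. The SD between repeated spots of an array was 0.011 to 0.034, so the differences between the PTC arrays were far larger than the spread of spots. Spots of an array share its labelling and hybridisation, so their spread does not separate a difference of pools from one of arrays. The call at 10PTC was lost with any 10PTC array left out (limma adjusted p = 0.0546 to 0.0690), and the call at PTC without PTC replicate 3 (0.0544), while the means stayed between 0.31 and 0.68.

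A second Stat3 probe is spotted once per array and gives a separate reading of the same gene. This probe read 0.70, 0.63 and 0.61 at 10PTC and 0.77, 0.39 and 0.56 at PTC, with means of 0.65 and 0.57 (limma adjusted p over probes = 0.00177 and 0.00192). Both probes put PTC replicate 1 highest and PTC replicate 2 lowest. In the scanner software's processed signals the second probe read 1.01, 1.07 and 0.96 at 10PTC and 1.31, 0.81 and 0.84 at PTC. The brighter probe read less there, at 0.56, 0.75 and 0.62 at 10PTC and 0.95, 0.19 and 0.45 at PTC. The close sizes of the 2 probes thus depend on the processing. Among the closest patterns to Stat3 were those of Pbxip1 (0.066) and H2-M3, a class Ib histocompatibility gene (0.075).

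**Figure D3:**
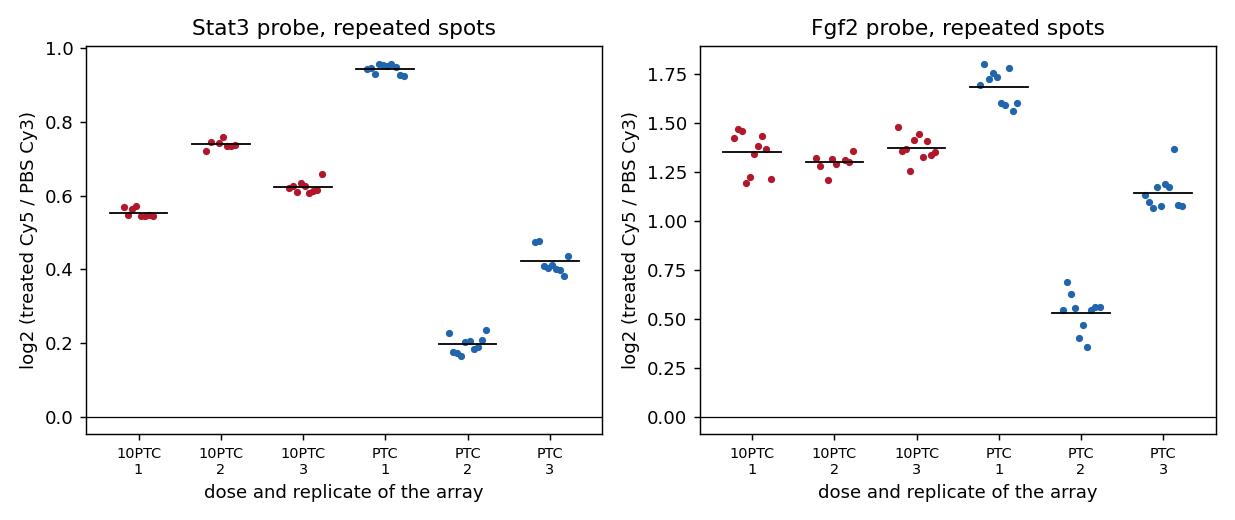
Log2 of treated over PBS for each repeated spot of the Stat3 and Fgf2 probes, by dose and replicate of the array, with the mean as a line. Spots of an array cluster tightly, with an SD of 0.011 to 0.034 for Stat3 and 0.044 to 0.105 for Fgf2, and the PTC arrays stand apart from each other.

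Lower calls made up 13.3% of all genes at 10PTC and 16.3% at PTC. Among the 9 other Janus kinase and STAT genes measured, none was called lower at either dose. Those called higher at both doses included Jak3, a kinase of blood cells (0.49 ± 0.11 at 10PTC and 0.36 ± 0.04 at PTC), and Stat2, a factor of interferon signalling (0.42 ± 0.07 and 0.38 ± 0.38). Stat2 was named after its value was seen. The calls of Jak3 stood with each array left out, and those of Stat2 were lost at both doses without any 1 of the 10PTC arrays and at PTC without PTC replicate 1 or 3. The kinases that gp130 receptors use, Jak1, Jak2 and Tyk2, lay at 0.02, -0.01 and 0.16 at 10PTC and at 0.03, 0.02 and -0.01 at PTC, not called. Stat5a and the brighter probe of Stat5b lay between -0.08 and 0.05 at both doses. The other Stat5b probe gave -0.21 at 10PTC and -0.35 at PTC.

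Socs3 encodes the feedback inhibitor of gp130 signalling. It lay at 1.24, 1.29 and 1.26 at 10PTC and at 1.82, 0.47 and 1.06 at PTC. The 10PTC arrays almost coincided, and the PTC arrays spread on both sides of them. The means were 1.26 ± 0.02 at 10PTC (2.40-fold) and 1.12 ± 0.68 at PTC (2.17-fold; SD, n = 3 each), with limma adjusted p = 0.00662 and 0.00753. The call at 10PTC was lost without 10PTC replicate 1 (limma adjusted p = 0.0539), at a mean of 1.27. Closest in pattern were 2900057B20Rik (0.078), Irf8 (0.083) and Atf3, a stress-induced transcription factor (0.094).

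The 250 bases before the RefSeq start of Socs3 (GRCm38.p6, chr11:117969367-117969616, minus strand) are shown because they hold, in capitals, a match to the STAT motif TTCNNNGAA, 154 bases before the start.
Socs3 upstream: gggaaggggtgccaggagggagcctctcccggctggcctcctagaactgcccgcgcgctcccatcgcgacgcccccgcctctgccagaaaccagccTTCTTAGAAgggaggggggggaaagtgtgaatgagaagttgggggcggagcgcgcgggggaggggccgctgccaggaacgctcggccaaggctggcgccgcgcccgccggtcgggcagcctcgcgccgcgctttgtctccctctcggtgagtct
The motif reads the same on both strands. It was found in 1 of the 9 members with an entry in the RefSeq promoter table, in a window of 250 bases, and in 8.13% of 27018 genes. The C/EBP motif TTGCNNAA, searched on both strands, was found in 0 of the 9 and in 10.8% of all genes. No entry was found for Cebpd.

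Of 15 other inhibitor genes of the pathway, 5 were called higher and 1 lower at 10PTC, and 6 higher and 3 lower at PTC. The shares over all genes were 14.4% higher and 13.3% lower at 10PTC, and 16.9% and 16.3% at PTC. Ptpn2, a phosphatase that acts on JAK and STAT proteins, lay at 0.46 ± 0.05 at 10PTC and 0.46 ± 0.12 at PTC, with its other probes at 0.39 to 0.67 and 0.35 to 0.45. Socs5 lay at 0.29 at each dose and Pias2 at 0.17 and 0.23, all called, although these calls were lost at PTC without replicate 3 and at 10PTC without 10PTC replicate 1 or 3. Pias2 also lost its 10PTC call without PTC replicate 3. Ptpn6 and Ptpn11, phosphatases that bind phosphorylated receptors, were called higher at both doses, Ptpn6 at 0.61 at 10PTC and 0.67 at PTC and Ptpn11 at 0.16 and 0.16. At 10PTC both calls were lost without any 1 of the 10PTC arrays, and that of Ptpn11 also without PTC replicate 3, while at PTC the call of Ptpn11 was lost without PTC replicate 2 or 3 or 10PTC replicate 3. Ptpn6 and Ptpn11 were named after the values were seen, to complete the count. Cish, a SOCS family gene induced by STAT5, fell by 0.29 at PTC and lay at -0.08 at 10PTC, where it was not called. Socs7 was called lower at both doses (-0.17 at 10PTC and -0.25 at PTC), but lay at 0.10 at 10PTC with median centring, and its 10PTC call was lost without any 1 of the 10PTC arrays. Pias4 was called lower at PTC (-0.18), a call lost without PTC replicate 1 or 3.

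**Figure D4:**
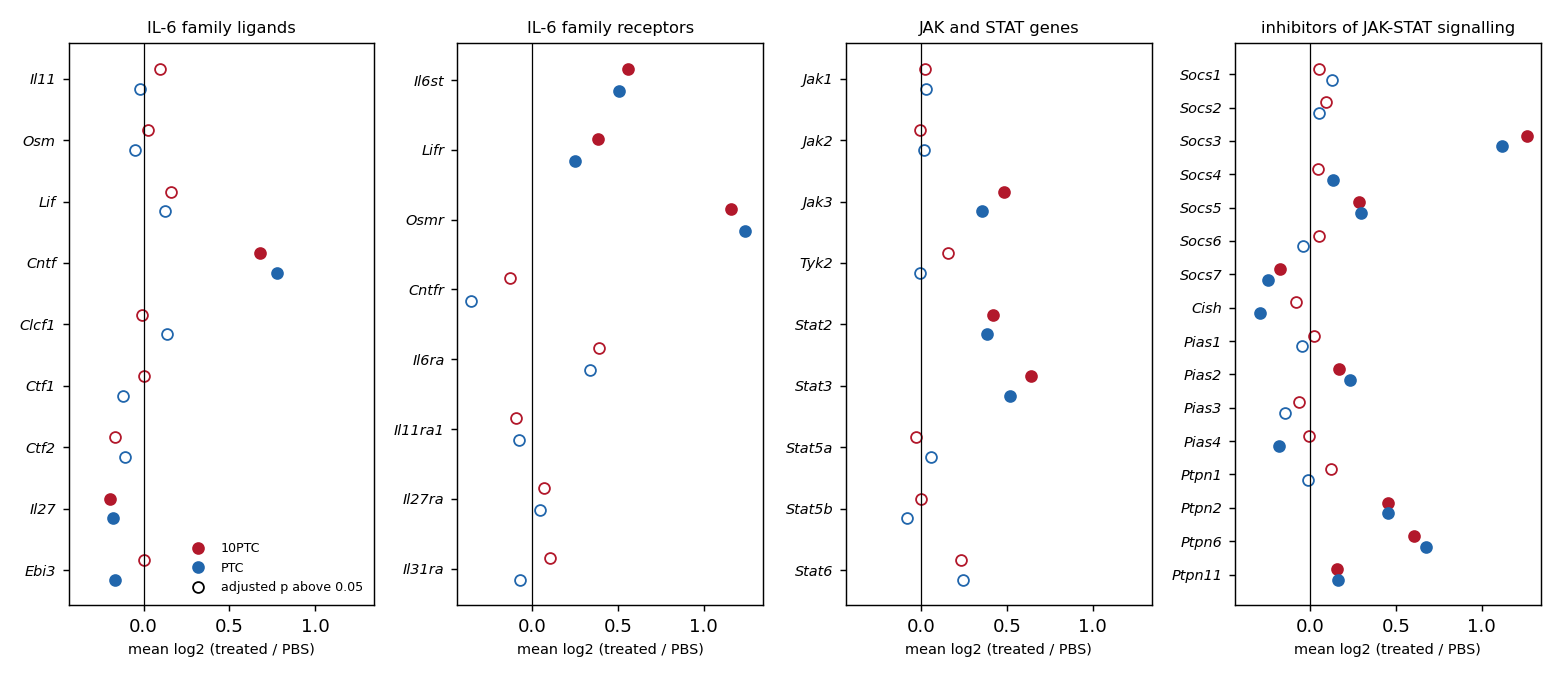
Mean log2 of treated over PBS (n = 3 arrays per dose) for measured genes of 4 lists, 10PTC in red above PTC in blue, with filled points for an adjusted p of 0.05 or less. Osmr and Socs3 stand furthest to the right at both doses.

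Cebpd, which encodes C/EBP delta, a transcription factor induced in reactive glia and acute inflammation, changed more than any other member. It lay at 2.89, 2.42 and 2.59 at 10PTC and at 2.84, 1.34 and 1.91 at PTC. Each 10PTC array was above PTC replicates 2 and 3, and PTC replicate 1 lay among the 10PTC arrays. The means were 2.63 ± 0.24 at 10PTC (6.20-fold) and 2.03 ± 0.76 at PTC (4.08-fold; SD, n = 3 each), with limma adjusted p = 0.00135 and 0.00190. It was called in all 23 alternatives at 10PTC and in 23 of 24 at PTC, all but the fit within slide 1.

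Cebpb, which encodes the related C/EBP beta, lay at 0.45, 0.76 and 0.37 at 10PTC and at 1.18, 0.03 and 0.37 at PTC. All 6 arrays were above 0, but the spread at PTC spanned the whole range. The means of 0.52 ± 0.20 and 0.53 ± 0.59 (SD, n = 3 each) were not called (limma adjusted p = 0.0802 at 10PTC and 0.0697 at PTC). Without PTC replicate 2 both were called, at 0.52 and 0.78 (limma adjusted p = 0.0454 and 0.0270), and without PTC replicate 1 the 10PTC mean was called as well (limma adjusted p = 0.00530). With median centring both were called, at 0.74 at 10PTC and 0.70 at PTC. Of 4 other C/EBP genes, Cebpg was called higher at both doses (0.41 ± 0.17 at 10PTC and 0.32 ± 0.07 at PTC), and Ddit3, a C/EBP gene of the unfolded protein response, at 10PTC (0.20 ± 0.08, against 0.08 ± 0.14 at PTC). The call of Ddit3 was lost without any 1 of the 10PTC arrays or without PTC replicate 3. Over all genes 14.4% were called higher at 10PTC and 16.9% at PTC.

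Genes listed as STAT3 targets were called higher more often than lower. Of 21 such genes outside the 10, 10 were called higher and 1 lower at 10PTC, and 11 higher and 1 lower at PTC, with medians of 0.37 and 0.33, where 14.4% of all genes were called higher and 13.3% lower at 10PTC, and 16.9% and 16.3% at PTC. Bcl3, a regulator of NF-kappa-B, lay at 2.74, 2.81 and 2.99 at 10PTC and at 3.80, 1.56 and 2.40 at PTC, the same order of PTC arrays as for most members. Gfap, the filament of reactive Muller glia and astrocytes, lay at 1.30, 1.53 and 1.48 at 10PTC and at 2.33, 1.23 and 1.28 at PTC, although its dimmest probe gave 0.25 and 0.10. Glul, the glutamine synthetase of Muller glia, lay at -0.61 at 10PTC and -0.64 at PTC, called lower at both (limma adjusted p = 0.00321 and 0.00204). Of the 10 Muller glia markers, Glul included, 4 were called higher and 2 lower at each dose, with medians of 0.29 at 10PTC and 0.16 at PTC. Timp1, an inhibitor of metalloproteinases, lay at 1.98, 2.53 and 1.80 at 10PTC and at 3.38, 1.06 and 2.17 at PTC, Fos at 0.58 ± 0.16 and 0.36 ± 0.16, and Junb at 0.23 ± 0.04 and 0.24 ± 0.16, all called. The 10PTC call of Timp1 was lost without 10PTC replicate 1, the PTC call of Fos without PTC replicate 3, and the calls of Junb without PTC replicate 3 at both doses, without PTC replicate 1 at PTC and without any 1 of the 10PTC arrays at 10PTC. Hp, the haptoglobin gene, was the 1 called lower, at -1.47 ± 0.11 at 10PTC and -1.69 ± 0.32 at PTC. Of 5 fat markers, 5 were called lower at 10PTC and 4 at PTC, with medians of -1.84 and -1.59. The part of fat tissue in the Hp value was not tested. The list of STAT3 targets was assembled with earlier results of these data known, and microglia markers rose on the same arrays, as given above, with their part not tested.

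Fgf2 encodes basic fibroblast growth factor. Its probe was spotted 10 times, and the array's coordinates (mm9, chr3:37247934-37295153, plus strand) span 47220 bases for a probe of 60, so that it crosses an exon junction and reads spliced RNA. It is shown because the Fgf2 values rest on it alone.
Fgf2 probe: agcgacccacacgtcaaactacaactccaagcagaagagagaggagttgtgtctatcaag
The averaged ratios were 1.35, 1.30 and 1.37 at 10PTC and 1.69, 0.53 and 1.14 at PTC. As for Socs3, the 10PTC arrays lay close together and the PTC arrays on both sides of them. The means were 1.34 ± 0.04 at 10PTC (2.53-fold) and 1.12 ± 0.58 at PTC (2.17-fold; SD, n = 3 each), with limma adjusted p = 0.00355 and 0.00449. The SD between repeated spots was 0.044 to 0.105, and the Cy5 signal was 523, 423 and 496 in the 10PTC pools and 481, 205 and 368 in the PTC pools, against 116 to 130 in the PBS channel. The size of the Fgf2 ratio depends on the processing. In the scanner software's processed signals it was 1.92, 1.89 and 1.99 at 10PTC and 2.43, 0.93 and 1.66 at PTC. Over the alternatives the mean ran from 1.32 to 1.95 at 10PTC and from 0.84 to 1.69 at PTC.

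Of 18 other ligand, receptor and adaptor genes of fibroblast growth factor signalling, 1 was called higher and 6 lower at each dose. Of all genes, 14.4% were called higher and 13.3% lower at 10PTC, and 16.9% and 16.3% at PTC. In either direction the shares of all genes were 27.7% at 10PTC and 33.1% at PTC. The median of the 18 genes was -0.11 at 10PTC and -0.14 at PTC. Frs2, the adaptor of the receptors, was the higher one (0.19 ± 0.04 at 10PTC and 0.26 ± 0.06 at PTC). Fgf13, a channel-binding member of the family in neurons, lay at -0.62 ± 0.13 and -0.63 ± 0.19, Fgf18 at -0.38 ± 0.04 and -0.54 ± 0.07, and Fgf9 at -0.34 ± 0.05 and -0.30 ± 0.15, all called lower. The 10PTC calls of Frs2 and Fgf9 were lost without 10PTC replicate 1 or 3. On the same arrays 8 of 10 ganglion cell markers were called lower at each dose, with medians of -0.48 at 10PTC and -0.50 at PTC. Their summed signal was 50680 to 61593 in the 10PTC pools and 36815 to 54769 in the PTC pools, against 64356 to 80961 in the PBS channel, and the part of those cells was not tested. The receptors Fgfr1, Fgfr2 and Fgfr3 lay at 0.11, -0.06 and -0.08 at 10PTC and at 0.28, -0.14 and 0.15 at PTC, not called.

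Feedback genes of that signal were split, with 4 of 14 called higher and 3 lower at 10PTC and 3 higher and 4 lower at PTC. Over all genes the shares were 14.4% higher and 13.3% lower at 10PTC, and 16.9% and 16.3% at PTC. Spry1, an inhibitor of the pathway, lay at 0.43 ± 0.05 at 10PTC and 0.40 ± 0.08 at PTC. Il17rd was called at 10PTC (0.48 ± 0.14) and lay at 0.13 ± 0.12 at PTC. Egr1 lay at 0.65 ± 0.29 and 0.57 ± 0.53 and Fosl1 at 0.33 ± 0.07 and 0.31 ± 0.29, called at both doses, but their calls at both doses were lost without any 1 of the 10PTC arrays. Those at PTC were lost without PTC replicate 1 or 3 too, and that of Egr1 at 10PTC without PTC replicate 3. Dusp4, an ERK phosphatase, lay at -0.53 ± 0.14 and -0.59 ± 0.13, Etv4 at -0.38 ± 0.19 and -0.48 ± 0.04, and Spred2 at -0.24 ± 0.13 and -0.51 ± 0.06, all called lower. Spred1, named after its value was seen to complete the count, was called lower at PTC (-0.20), a call lost without PTC replicate 2 or 3. The 10PTC calls of Etv4 and Spred2 were lost without 10PTC replicate 1 or 3.

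Of 22 other survival factors and receptors of the retina, with Cntf counted again, 4 were called higher and none lower at 10PTC, and 5 higher at PTC. Over all genes 14.4% were called higher and 13.3% lower at 10PTC, and 16.9% higher at PTC. The counts called higher lie near those shares, and the number called lower at PTC is not reported here. Edn2, an endothelin released by stressed photoreceptors, lay at 2.40, 2.29 and 2.45 at 10PTC and at 2.93, 1.50 and 1.95 at PTC. Its means were 2.38 ± 0.08 and 2.13 ± 0.73 (SD, n = 3 each; limma adjusted p = 0.00135 and 0.00131). Ntf3, the neurotrophin-3 gene, was called at both doses (0.37 ± 0.10 and 0.41 ± 0.25), and Lgals3, a galectin of activated microglia, at PTC, where it lay at 1.26 ± 0.72, beside 0.67 ± 0.36 at 10PTC. Vegfa and Ednrb were named after their values were seen, to complete the counts. Vegfa was called higher at 10PTC (0.21), a call lost without PTC replicate 2 or 10PTC replicate 1 or 3, and its other probe gave -0.20. Ednrb was called higher at PTC (0.52), a call lost without PTC replicate 1 or 2. The neurotrophin receptor gene Ntrk3 was called lower at PTC, where it lay at -0.24 ± 0.17, beside -0.10 ± 0.06 at 10PTC. The 10PTC call of Ntf3 was lost without any 1 of the 10PTC arrays, and the PTC call of Ntrk3 without PTC replicate 1 or 3 or 10PTC replicate 3.

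The doses were then set against each other. None of the 10 genes was called for 10PTC against PTC by limma, none had an unadjusted p under 0.05, and none was called in any alternative. Of all genes tested 0 were called (0%), 2130 had an unadjusted p under 0.05, and between 0 and 365 were called over the alternatives. The largest difference was that of Cebpd, 0.60 (95% interval -0.20 to 1.40; limma adjusted p = 0.676), followed by Cntfr with 0.23 (-0.25 to 0.71) and Fgf2 with 0.22 (-0.37 to 0.81). For Socs3 it was 0.15 (-0.54 to 0.83), for Lifr 0.13 (-0.06 to 0.33) and for Stat3 0.12 (-0.29 to 0.53). Il6st differed by 0.05 (-0.20 to 0.31), Lif by 0.03 (-0.25 to 0.32), Cebpb by -0.01 (-0.64 to 0.63) and Osmr by -0.08 (-0.68 to 0.51). These intervals leave room for differences of either sign in every gene. For none of the 10 did the arrays of the 2 doses stand wholly apart, which 8.91% of all genes did with 10PTC higher and 6.59% with 10PTC lower.

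**Figure D5:**
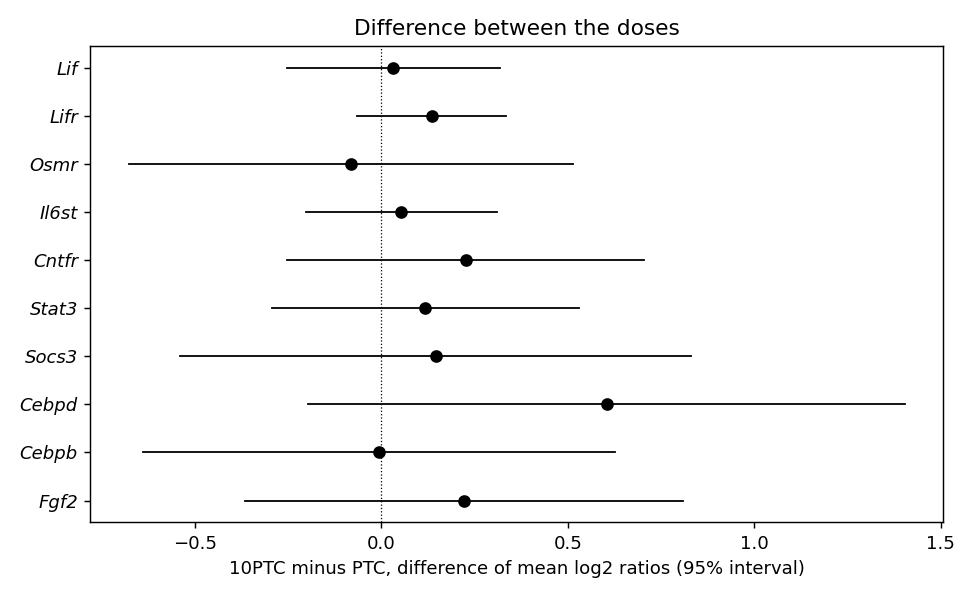
Difference between the mean log2 ratios of 10PTC and PTC for the 10 genes, with 95% intervals from the limma fit over 6 arrays. Each interval crosses 0, and that of Cebpd reaches furthest above it.

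The spread within PTC was shared by most members. PTC replicate 1 was the highest and PTC replicate 2 the lowest of the 6 arrays for 7 of the 10 genes, namely Lif, Osmr, Il6st, Stat3, Socs3, Cebpb and Fgf2. The same order was found in 8.25% of all genes and in 17.1% of the 2774 genes called higher at both doses. For Lif, whose spot lay close to background, this order depends on the processing. In the scanner software's processed signals its PTC replicates 1 to 3 lay at 0.83, 1.50 and 1.01, with replicate 2 the highest of them. The median of the 10 genes per array was 0.57, 0.75 and 0.58 at 10PTC and 1.06, 0.25 and 0.45 at PTC. Both extreme arrays lay on the first slide, so slide does not separate them.

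Since slide 1 held PTC arrays only, values were also taken within slides. On slide 1, PTC replicates 1 and 2 gave means of 0.29 to 2.09 for the 7 genes, none of them called with 2 arrays (limma adjusted p = 0.0764 to 0.167). On slide 2 the 10PTC arrays gave the same means as above, all 7 called (limma adjusted p at most 0.00525). The single PTC array of slide 2 gave values of 0.17 to 1.91 for the same 7 genes. No calls are given for it, since 1 array shows no spread of its own. With slide as a block in the fit over 6 arrays, 6 genes were called at PTC, all of the 7 but Lifr (limma adjusted p = 0.0508), and at 10PTC Cebpd was called (0.0236) while the other 6 had limma adjusted p = 0.0526 to 0.0849 at means of 0.45 or more.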

How the data were processed

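Retinal RNA of pooled mouse retinas was hybridised to 6 Agilent 2-colour arrays (design 026655). Cy3 or Cy5 dCTP was incorporated during reverse transcription, per the labels' protocols. The authors deposited, per array, a scanner file with spot intensity values (mean, background and processed signals) and log10 ratios, made with Feature Extraction 10.7.3.1 per the file headers, where the submitters' processing notes name 9.3.2.1. The authors also deposited a table of log2 ratios, which run as Cy5 over Cy3 (slope 3.32 on the scanner's log10 ratios). Its array medians lie between -0.075 and 0.039, and its centring is otherwise unknown.

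Mean signals were corrected with normexp (offset 50) on the local background and normalized by loess in limma 3.58.1 (R 4.3.3), with control spots at weight 0 and outlier spots left out. Spots of a probe were averaged. A probe was kept where at least 3 of 6 arrays showed it well above background in either channel, and the probe of highest mean intensity stood for a gene. Non-member probes were named through RefSeq tables by accession, symbol or synonym. Median signals were 153 to 221 in Cy3 and 187 to 347 in Cy5, over background medians of 26.0 to 29.0 and 47.0 to 48.0.

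A limma fit over all arrays had 1 coefficient per dose, tested against 0 and against each other at a threshold of 0.05. The steps were tested on simulated data. The genes, lists, tests and alternatives were chosen with earlier results of these data known. From each list the text names the 3 genes of smallest p per direction and dose among those called, and a fixed panel whether called or not. Likeness is the root mean square difference over arrays. The alternatives were other background corrections, normalizations, filters, probe rules, array weights, slide or replicate number as a block, and each array left out. Correlations of deviations between same-numbered pools were -0.27, 0.15 and 0.20. With 3 arrays per dose these values cannot decide if the numbers pair the pools, and the main fit used no pairing. Protein sequences were not used here, so the printed probe was not checked by translation. Promoter sequences are RefSeq's (GRCm38.p6), and probe sequences and coordinates are the array design's (mm9). Some genes of the lists and a probe sequence are not reported here.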

Additional observations from a re-analysis of the deposited data

How the results depend on the processing

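The 7 genes called higher stayed above 0 in each alternative at both doses, and no member was called for 10PTC against PTC in any. Between 4 and 8 members were called at 10PTC and 6 to 9 at PTC with 1 array left out. Without 10PTC replicate 1 it was 4 at 10PTC, and with array weights 10 at each dose. With slide as a block 1 member was called at 10PTC, and within slide 1 none of the 10 (0) at PTC. Of all genes, 1359 to 9119 were called at 10PTC with 1 array left out, 5004 to 7862 at PTC and 0 to 1 for 10PTC against PTC. The low counts came without 10PTC replicate 1 (1359), 10PTC replicate 3 (1566) and PTC replicate 3 (5004). Other counts at 10PTC were 4418 genes with processed signals, 4579 with the authors' deposited table, 14632 with median centring, 14032 with array weights and 1008 with slide as a block. At PTC they were 14714 with array weights, 4607 with PTC fitted alone, 289 within slide 1 and 1714 within slide 2. For 10PTC against PTC they were 365 with array weights and 2 with trended, robust moderation. The cause of these shifts was not tested.

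Lif turned sign with median centring (-0.17 at 10PTC, -0.037 at PTC), and Cntfr at 10PTC with median centring (0.062), with its probes averaged (0.015) and without 10PTC replicate 3 (0.00071). Differences between the doses that turned sign were uncalled. For Lif they were -0.0015 with processed signals, -0.0070 without background subtraction, -0.13 with median centring, -0.0057 with the authors' table and -0.012 with slide as a block or within slide 2. For Cebpb they were 0.015, 0.039 with median centring, 0.090 with scale normalization, 0.011 with the authors' table, 0.038 with array weights and 0.15 by slide. For Osmr they were 0.070 with scale normalization, 0.043 with array weights and 0.14 by slide. With 1 array left out the differences ranged from -0.30 to 0.25 for Osmr, -0.25 to 0.32 for Cebpb, -0.10 to 0.14 for Lif, -0.051 to 0.17 for Il6st, -0.044 to 0.33 for Stat3, -0.18 to 0.50 for Socs3, -0.073 to 0.50 for Fgf2 and -0.010 to 0.36 for Cntfr, and Cntfr at 10PTC from -0.37 to 0.00071.

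With the replicate block, 7 members were called at 10PTC and 8 at PTC. Signal over background limits Lif above all: its control channel was above background on 2 of 6 arrays.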
